A study of Mus musculus with 8 samples.

Results

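The genes described here encode CTCF and the cohesin machinery that CTCF works with: Ctcf itself, the ring subunits Smc1a, Smc3 and Rad21, the ring-bound subunits Stag1 and Stag2, the loader Nipbl, and the release and maintenance factors Wapl, Pds5a and Pds5b. They were taken by gene symbol from a table of 18094 genes, and all 10 were found, with Wapl listed under its older symbol Wapal and matched by its Ensembl identifier. RNA-seq was performed on E14Tg2A mouse embryonic stem cells (mESCs) on day 0 and on embryoid bodies (EBs) on day 4, in a wild-type (WT) line and in a CTCF-K20R line. In CTCF-K20R cells the Ctcf gene was edited with CRISPR/Cas9 so that lysine 20 of the protein became arginine; WT cells carry no such edit.

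All mESCs were grown on inactivated mouse embryo fibroblasts with serum, leukemia inhibitory factor (LIF) and the inhibitors CHIR99021 and PD0325901, which hold cells in the naive state. EBs were made in hanging drops in serum without LIF, so day and culture medium change together and cannot be told apart. Each genotype and day had 2 libraries, 8 in all. The labels name no clone, so how many independent edited clones the CTCF-K20R libraries represent was not stated.

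Cohesin is a ring-shaped complex that holds sister chromatids together and, in interphase, extrudes DNA into loops. NIPBL loads the ring and drives extrusion, WAPL with a PDS5 protein opens the ring and releases it, and CTCF bound to its sites stops the ring and so sets loop anchors and domain boundaries. STAG1 and STAG2 are alternative subunits that sit on the ring and contact CTCF, and PDS5A and PDS5B are likewise paralogs. In mESCs these proteins are abundant, and the ring subunits are needed for growth as well as for the folding of the genome.

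Libraries held 19412659 to 21311513 normalized counts in total, and one read was worth 0.815 to 1.155 normalized counts depending on the library, so the members, at 2139 normalized counts or more, lay far above the limit of 3 reads (2.445 to 3.465 normalized counts). The 2 WT libraries of a day differed by less than sampling noise: the mean squared difference over genes was 0.314 times that expected from counting on day 0 and 0.276 times on day 4, against 4.00 and 4.35 for the CTCF-K20R pairs. Each WT pair was therefore averaged and counted as 1 sample, which leaves n = 1 for WT and n = 2 for CTCF-K20R on each day. The spread behind every p-value comes from the 2 CTCF-K20R pairs, and each WT sample is assumed to vary like them. The methods call the libraries of a group biological replicates but do not say whether they came from separate cultures or clones, so the p-values measure the spread between these libraries, which may be technical. Marker levels followed the day labels, with 7 pluripotency markers summing to 104200 to 105400 normalized counts in mESCs of both genotypes, to 15540 and 15650 in WT EBs and to 32130 and 31410 in CTCF-K20R EBs. Pou5f1 alone held 12595 and 12696 of these in WT EBs and 21940 and 21590 in CTCF-K20R EBs. Of the 7, 6 were called higher in CTCF-K20R EBs and 1 lower, against 21.5% and 18.6% of all genes. The lower one was Klf4, at 44.3 and 30.8 normalized counts against 105.8 and 104.5 in WT EBs. Of 7 early mesoderm markers, 7 were called lower in CTCF-K20R EBs, against 18.6% of all genes. Their summed levels were 2482 and 2391 against 40620 and 40780 in WT, with Msgn1 at 0 in both CTCF-K20R EB libraries. Mesp1 and Msgn1, at 5.6 or less outside WT EBs, also reached the mean of 10 needed for testing only through WT EBs. Of 4 endoderm markers, 3 were tested and called lower in CTCF-K20R EBs, against 18.6% of all genes. Sox17 and Gata6, at 15.5 or less outside WT EBs, reached the mean of 10 needed for testing only through WT EBs. Afp, under that mean, was at 0 and 0.8 in WT EBs and at 5.7 and 3.3 in CTCF-K20R EBs. Of 4 ectoderm markers, Olig2 was not listed, and the 3 tested were called higher in CTCF-K20R EBs, against 21.5% of all genes. In bulk RNA, fewer cells of a type and less RNA per cell cannot be told apart, and the part of this difference in cell makeup in the values below was not tested.

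**Figure D1:**
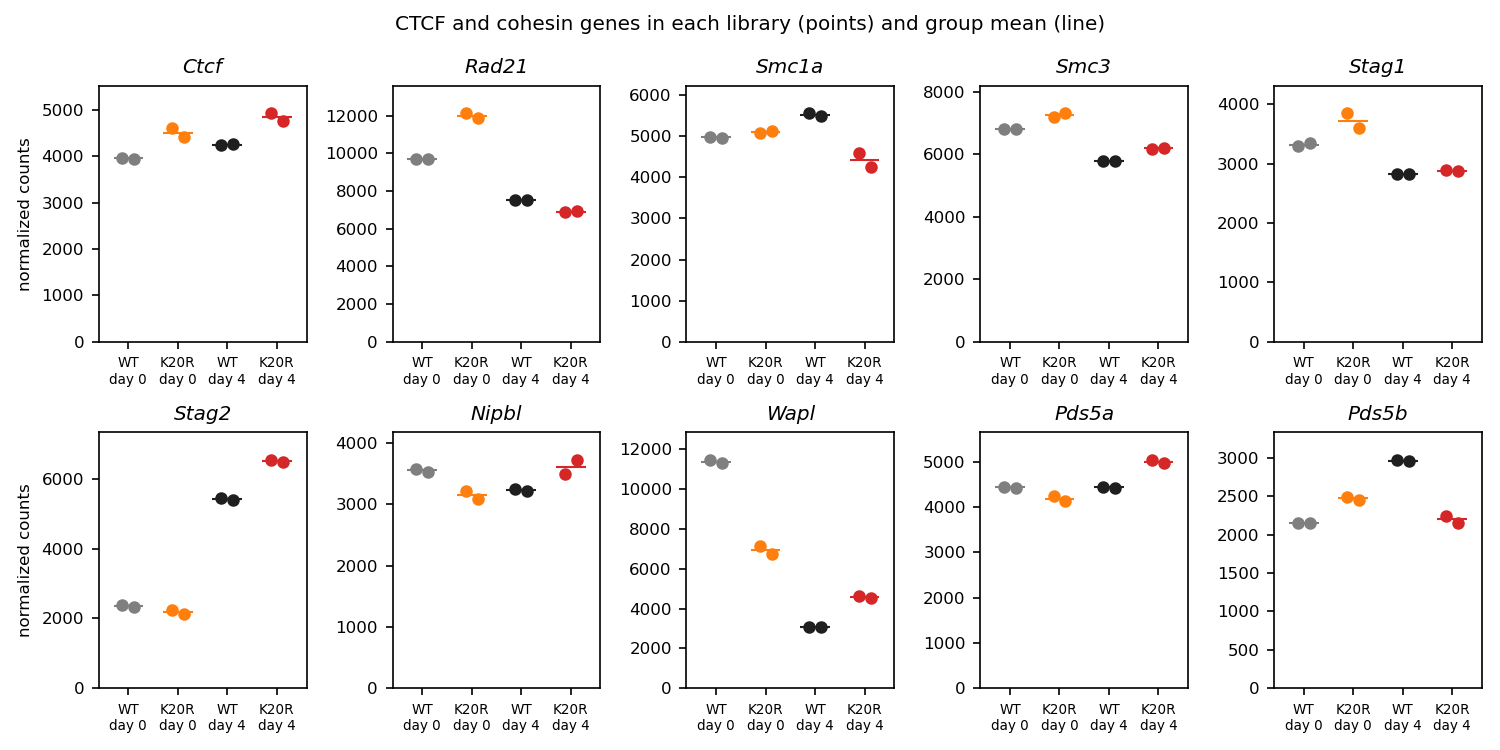
Normalized counts (y axes, from 0, one scale per gene) of the 10 genes in each of the 8 libraries (points) with the group mean (line), for WT and CTCF-K20R on day 0 and day 4. Wapl has the widest span, from 11467 in WT mESCs to 3063 in WT EBs, and Stag2 is the gene that rises most between the days.

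Ctcf (ENSMUSG00000005698, GRCm38 chromosome 8 from 105636568 to 105682922, + strand) carries the edited codon, which lies at 105663820 to 105663822 in an exon of transcript ENSMUST00000005841.15 that runs from 105663754 to 105664543. The reference coding sequence around it is printed because every comparison by genotype rests on this edit. It covers codons 11 to 30 of 736 on the + strand at chr8:105663793-105663852, from the GENCODE vM21 transcript, 5′ to 3′, with the lysine codon 20 in capitals.
Ctcf codons 11 to 30: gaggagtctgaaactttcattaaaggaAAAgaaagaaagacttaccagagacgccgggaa
Gene-level values hold no base calls, so the edit itself could not be checked in these files.

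Ctcf was expressed at a similar level in all libraries, with both CTCF-K20R libraries of a day above the WT libraries of that day. The WT mESC libraries held 3971 and 3939 normalized counts, those of CTCF-K20R mESCs 4610 and 4408, those of WT EBs 4241 and 4256, and those of CTCF-K20R EBs 4926 and 4771. The smallest gap, on day 0, was between 3971 in WT and 4408 in CTCF-K20R. The log2 fold change of CTCF-K20R over WT was 0.19 (SE 0.0481) on day 4, which passed the threshold of an adjusted p of 0.05 (limma adjusted p = 0.0268), and 0.19 (SE 0.0481) on day 0, which did not (adjusted p = 0.055). The difference between those effects was 0.00 with a 95% confidence interval from -0.17 to 0.17. The day 4 call was lost without either CTCF-K20R EB library (adjusted p = 0.122 and 0.0855) and under quantile normalization, where the log2 fold change was 0.05 (adjusted p = 0.441).

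The Ctcf effect lay below the median of the genes around it. Among 106 tested genes that start within 5 Mb of Ctcf, the median log2 fold change was 0.54 on day 4 and 0.56 on day 0, with 80.2% and 88.7% of them above 0. Of these, 28 on day 4 and 22 on day 0 had a lower log2 fold change than Ctcf. The median over all 829 tested genes of chromosome 8 was 0.31 on day 4 and 0.27 on day 0; chromosome 14 had medians of -0.31 and -0.28, and the other chromosomes lay between -0.09 and 0.06 on day 4 and between -0.07 and 0.03 on day 0. The part of this regional shift in the Ctcf value was not tested. Agrp and Gm5914, which overlap Ctcf on the opposite strand, reached at most 15.5 and 7.7 normalized counts in any library. The strand setting of the counting was not stated, so reads of genes that overlap on opposite strands cannot be told apart. Smc3, Rad21, Nipbl and Wapl overlap no annotated gene. On the opposite strand, Stag2 overlaps an unverified transcript, and Smc1a and Stag1 overlap processed pseudogenes. Pds5a there overlaps a small nuclear RNA and unverified transcripts, and Pds5b a small nucleolar RNA. On the same strand, Stag1 and Pds5a overlap unverified transcripts, and Pds5b a small nuclear RNA and a sense intronic transcript. A strand setting would not separate these same-strand overlaps.

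**Figure D2:**
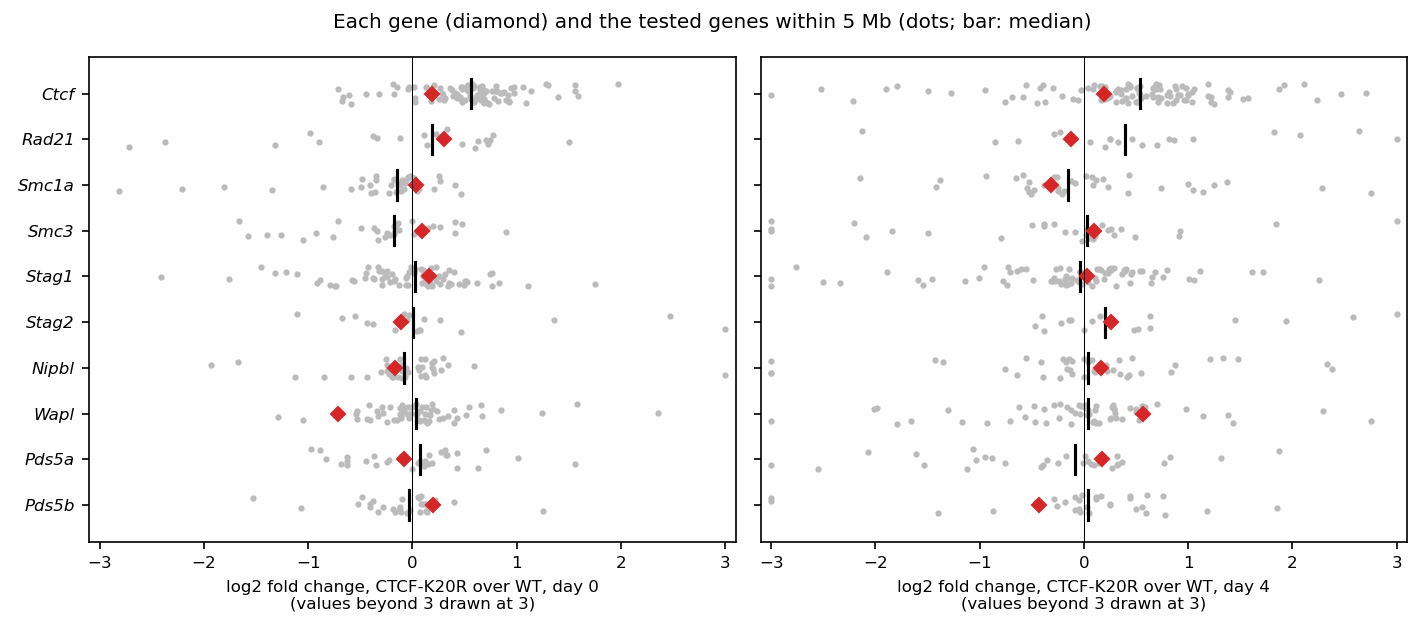
Log2 fold change of CTCF-K20R over WT (x axes) on day 0 (left) and day 4 (right) for each gene (red diamond) and for the tested genes that start within 5 Mb of it (grey dots, with their median as a black bar). Ctcf at 0.19 sits to the left of its neighbours' median of 0.56 on day 0 and 0.54 on day 4, whereas the median around Wapl is 0.03 and 0.04.

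In EBs some of the cohesin genes were higher and others lower in CTCF-K20R. On day 4, 4 of the 10 genes were higher in CTCF-K20R (Wapl, Stag2, Ctcf and Pds5a) and 3 were lower (Pds5b, Smc1a and Rad21), while Smc3, Nipbl and Stag1 did not pass the test. Among all 15767 genes tested 21.5% were called higher and 18.6% lower, so the members' counts come from a background in which 40.1% of genes were called. None of the 10 also passed a log2 change of 1, which 6.89% of all genes did upward and 8.65% downward. The members' median log2 fold change was 0.129 and their median absolute change 0.182, against 0.009 and 0.406 over all genes. Together the 10 genes took 0.227% and 0.225% of all normalized counts in CTCF-K20R EBs and 0.233% and 0.231% in WT EBs.

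In mESCs fewer of them passed. On day 0, Rad21 was called higher and Wapl lower in CTCF-K20R, and the other 8 were not called, against 7.83% of all genes called higher, 7.57% lower and 15.4% either way. No member passed a log2 change of 1 on day 0 as well, while 1.19% of all genes did so upward and 2.6% downward. Both CTCF-K20R libraries lay on one side of both WT libraries for all 10 genes on both days. That held upward for 7 members on day 4 and 6 on day 0 and downward for 3 and 4, but it was also so for 43.3% (upward) and 41.7% (downward) of all genes on day 4, and for 37.6% and 40.3% on day 0. Leaving out either CTCF-K20R EB library left 0 of 15767 genes called on day 0 by limma at an adjusted p under 0.05, with 4500 and 4507 at an unadjusted p under 0.05. Any day 0 call given in this report was thus lost in those fits, whichever the gene. Without either CTCF-K20R mESC library fewer genes were called on day 0 than in the full fit.

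**Figure D3:**
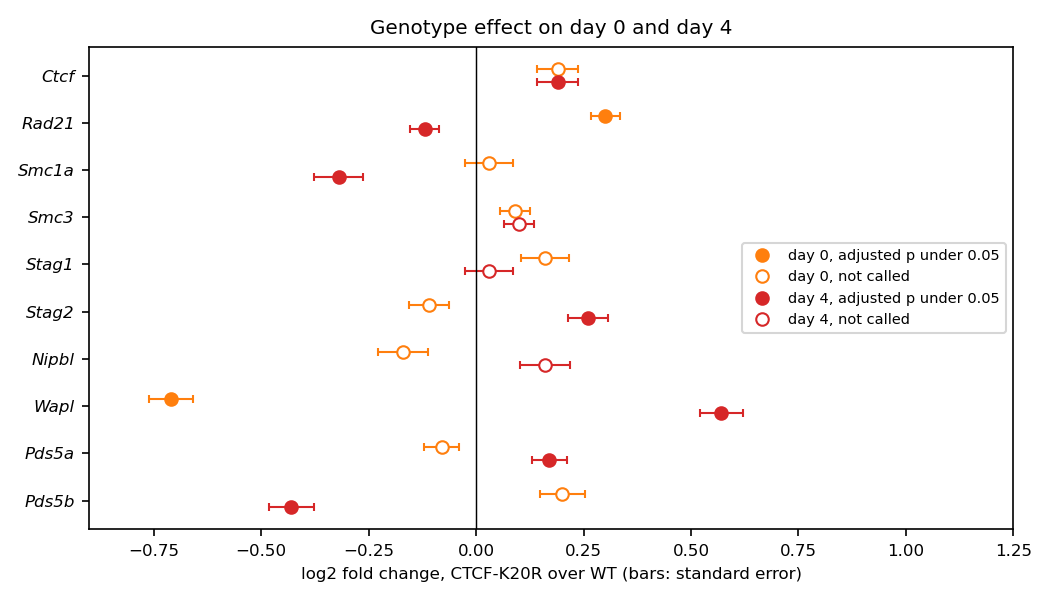
Log2 fold change of CTCF-K20R over WT (x axis) for each gene on day 0 (orange) and day 4 (red), with the standard error as a bar; filled points have an adjusted p under 0.05. Wapl runs from -0.71 on day 0 to 0.57 on day 4, and Rad21 from 0.30 to -0.12.

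Wapl (ENSMUSG00000041408, GRCm38 chromosome 14 from 34673928 to 34747983, + strand), the cohesin release factor, showed the largest genotype effect of the 10 on both days, in opposite directions. WT mESCs stood at 11467 and 11305 normalized counts and CTCF-K20R mESCs at 7163 and 6731. WT EBs stood at 3101 and 3063, and CTCF-K20R EBs at 4644 and 4529. The 4 groups did not overlap, and the CTCF-K20R libraries of each day lay between the WT libraries of the 2 days. On day 0 Wapl was lower in CTCF-K20R, at 0.610 times the WT level (log2 fold change -0.71, SE 0.0503, adjusted p = 0.0017), and on day 4 it was higher, at 1.49 times WT (log2 fold change 0.57, SE 0.0503, adjusted p = 0.00074). The difference between the effects was 1.29 (SE 0.0711, adjusted p = 0.000421).

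In WT cells Wapl in EBs was at 0.271 times its mESC level (log2 change -1.89). Changes between days in WT cells were not tested here and are given as values, and 7.79% of all genes had a change at or below it. In CTCF-K20R cells Wapl fell by 0.60 on the log2 scale (SE 0.0411, adjusted p = 0.000134), to 0.661 times. Of 61 tested neighbours within 5 Mb, 3 had a lower log2 fold change than Wapl on day 0 and 52 had a lower one on day 4, with neighbour medians of 0.03 and 0.04. Within 1 Mb (14 genes) the median was 0.03 on day 0 and 0.53 on day 4, the latter close to Wapl itself, and the part of this local shift was not tested. The day 4 call held without each library in turn. On day 0 the log2 fold change was -0.71 without either CTCF-K20R EB library, with adjusted p = 0.0623 and 0.0622.

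Rad21 (ENSMUSG00000022314, GRCm38 chromosome 15 from 51962240 to 51991747, - strand), the kleisin that closes the ring and is cut by separase at anaphase, was the other member called on both days with opposite signs. Its normalized counts were 9713 and 9721 in WT mESCs, 12123 and 11856 in CTCF-K20R mESCs, 7524 and 7551 in WT EBs, and 6904 and 6921 in CTCF-K20R EBs. The CTCF-K20R mESC libraries were the highest of the 8 and the CTCF-K20R EB libraries the lowest. The log2 fold change was 0.30 (SE 0.0336, adjusted p = 0.00571) on day 0 and -0.12 (SE 0.0336, adjusted p = 0.0327) on day 4, and the difference was -0.43 (SE 0.0475, adjusted p = 0.00299). Called in opposite directions on the 2 days were 524 of all 15767 genes (3.32%), Wapl and Rad21 among them.

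Between the days Rad21 fell by 0.79 on the log2 scale in CTCF-K20R cells (adjusted p = 1.43e-05), and its log2 change in WT cells was -0.37. The difference between days held without each library, with adjusted p up to 0.0465. The single-day calls were less firm. On day 4 the call was lost when any one of the 4 CTCF-K20R libraries was left out (adjusted p from 0.0704 to 0.107), with the replicate number as a block (0.0532), with a smooth on GC content and length removed (0.0855) and in a fit of the day 4 libraries alone (0.0723). On day 0 it was lost without CTCF-K20R mESC replicate 1 and in a fit of the day 0 libraries alone (0.0607). Without either CTCF-K20R EB library it was lost too, as were the day 0 calls of all genes. The 20 tested genes within 5 Mb of Rad21 had median log2 fold changes of 0.19 on day 0 and 0.39 on day 4.

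SMC1A and SMC3 are the coiled-coil ATPases that form the arms of the ring. Smc1a (ENSMUSG00000041133, GRCm38 chromosome X from 152016428 to 152062694) was at 4992 and 4951 normalized counts in WT mESCs, 5067 and 5118 in CTCF-K20R mESCs, 5555 and 5483 in WT EBs, and 4594 and 4245 in CTCF-K20R EBs. The CTCF-K20R EB libraries were thus the lowest of the 8 and the WT EB libraries the highest. On day 4 the log2 fold change was -0.32 (SE 0.0563, adjusted p = 0.00789), and this call held without each library. On day 0 the value was 0.03 (adjusted p = 0.718). The effects differed between days by -0.36 (SE 0.0797, adjusted p = 0.0266), which was lost without either CTCF-K20R mESC library (0.0806 and 0.0876) or without CTCF-K20R EB replicate 2 (0.063), and with no filter on low genes (0.062). The 36 tested neighbours of Smc1a within 5 Mb had medians of -0.16 on day 4 and -0.15 on day 0.

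Smc3 (ENSMUSG00000024974, GRCm38 chromosome 19 from 53600398 to 53645833) was at 6805 and 6818 normalized counts in WT mESCs, 7174 and 7304 in CTCF-K20R mESCs, 5778 and 5768 in WT EBs, and 6169 and 6204 in CTCF-K20R EBs. Its log2 fold change was 0.10 on day 4 (95% confidence interval 0.01 to 0.19, adjusted p = 0.0746) and 0.09 on day 0 (adjusted p = 0.163). Between the days these effects differed by 0.01 (-0.11 to 0.14). On each day both CTCF-K20R libraries were above both WT libraries, and all EB libraries were below all mESC libraries. The ratio of Smc1a to Smc3 within a library, each per kilobase of its longest coding transcript, was 0.759 and 0.751 in WT mESCs, 0.730 and 0.725 in CTCF-K20R mESCs, 0.994 and 0.983 in WT EBs, and 0.770 and 0.708 in CTCF-K20R EBs. WT EBs stood apart from the other 3 groups in this ratio, which does not depend on how libraries were scaled to each other.

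Stag2 (ENSMUSG00000025862, GRCm38 chromosome X from 42149317 to 42277185) was higher in EBs than in mESCs in both genotypes. STAG2 is the subunit most often mutated in cancer among the cohesin genes. Its libraries held 2378 and 2324 normalized counts in WT mESCs, 2230 and 2139 in CTCF-K20R mESCs, 5462 and 5381 in WT EBs, and 6542 and 6485 in CTCF-K20R EBs. Every EB library was more than 2-fold above every mESC library. The log2 change between days was 1.58 in CTCF-K20R cells (SE 0.0379, adjusted p = 5.17e-06), the one member past a log2 change of 1 there, against 14.5% of all genes upward. In WT cells it was 1.2, and 16.1% of all genes had a change at or above it.

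The genotype effect on Stag2 was a log2 fold change of 0.26 on day 4 (SE 0.0464, adjusted p = 0.00792) and -0.11 on day 0 (adjusted p = 0.187), and the difference was 0.37 (SE 0.0657, adjusted p = 0.013). Without either CTCF-K20R EB library the day 4 call was lost (0.0653 and 0.0607), as was the difference (0.0806 and 0.0774), and quantile normalization gave 0.14 on day 4 (0.0559). Its paralog Stag1 (ENSMUSG00000037286, GRCm38 chromosome 9 from 100597798 to 100959375) was at 3296 and 3346 normalized counts in WT mESCs, 3845 and 3600 in CTCF-K20R mESCs, 2829 and 2826 in WT EBs, and 2884 and 2878 in CTCF-K20R EBs. Stag1 was not called on day 4 (log2 fold change 0.03, interval -0.11 to 0.16, adjusted p = 0.728) or on day 0 (0.16, adjusted p = 0.108), and fell by 0.37 between days in CTCF-K20R cells (adjusted p = 0.00114). Its log2 change in WT cells was -0.23. With the GC content and length smooth removed, the day 0 value was 0.21 and called (0.0475).

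The level of Stag1 relative to Stag2 was lower in EBs than in mESCs in both genotypes. Per kilobase of the longest coding transcript, the ratio of Stag1 to Stag2 was 1.38 and 1.44 in WT mESCs, 1.72 and 1.68 in CTCF-K20R mESCs, 0.517 and 0.524 in WT EBs, and 0.440 and 0.443 in CTCF-K20R EBs. The 4 groups did not overlap, and the CTCF-K20R libraries lay at both extremes of the ratio. Which STAG gene is the more abundant depends on the length used. With the median length of their coding transcripts Stag1 was above Stag2 in every group, at 2790 against 1640 per kilobase in WT EBs and 2850 against 1970 in CTCF-K20R EBs. A change of length shifts a ratio by the same factor in all libraries, so the order of the groups does not depend on it. The ratios of genes within a library were not tested.

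Pds5a and Pds5b, paralogs whose proteins bind WAPL at the ring and also help to keep SMC3 acetylated, differed between the genotypes in opposite directions in EBs. Pds5b (ENSMUSG00000034021, GRCm38 chromosome 5 from 150673739 to 150810690) was at 2155 and 2149 normalized counts in WT mESCs, 2494 and 2449 in CTCF-K20R mESCs, 2972 and 2955 in WT EBs, and 2240 and 2155 in CTCF-K20R EBs. In WT cells the EB libraries were the higher ones and in CTCF-K20R cells the mESC libraries were. Its log2 fold change was -0.43 on day 4 (SE 0.0523, adjusted p = 0.00223) and 0.20 on day 0 (adjusted p = 0.0591; called at 0.21 under TMM-style scaling, 0.046, and at 0.27 with the GC and length smooth, 0.0274). The effects of the 2 days differed by -0.63 (SE 0.0739, adjusted p = 0.00355). The day 4 effect and the difference held without each library. The log2 change of Pds5b between the days was 0.46 in WT and -0.17 in CTCF-K20R (adjusted p = 0.0179), the latter a call lost without either CTCF-K20R mESC library (0.0893 and 0.0615) or without CTCF-K20R EB replicate 2 (0.074), and under quantile normalization (-0.09, 0.118).

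Pds5a (ENSMUSG00000029202, GRCm38 chromosome 5 from 65605721 to 65698273) was at 4436 and 4427 normalized counts in WT mESCs, 4237 and 4136 in CTCF-K20R mESCs, 4440 and 4425 in WT EBs, and 5040 and 4965 in CTCF-K20R EBs. In WT cells the log2 change between days was 0.00, and both CTCF-K20R EB libraries were above all other libraries. The log2 fold change by genotype was 0.17 on day 4 (SE 0.0409, adjusted p = 0.021) and -0.08 on day 0 (adjusted p = 0.238), and the difference was 0.26 (SE 0.0578, adjusted p = 0.0272). The day 4 call was lost without either CTCF-K20R EB library (0.0855 and 0.0712) and under quantile normalization (0.03, adjusted p = 0.568), and the difference was lost when any one of the 4 CTCF-K20R libraries was left out (0.0665 to 0.0936) and under quantile normalization (0.16, 0.0895). The ratio of Pds5a to Pds5b per kilobase was 1.71 in both WT mESC libraries, 1.41 and 1.40 in CTCF-K20R mESCs, 1.24 in both WT EB libraries, and 1.87 and 1.91 in CTCF-K20R EBs. This ratio was lower in EBs than in mESCs in WT cells and higher in EBs than in mESCs in CTCF-K20R cells.

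**Figure D4:**
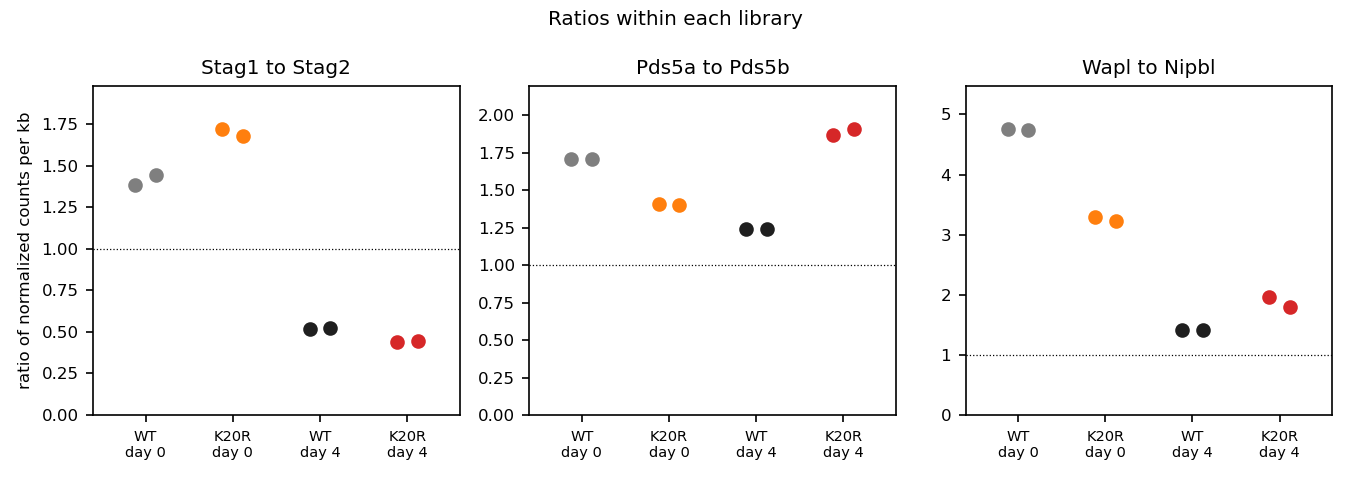
Ratios of normalized counts per kilobase of the longest coding transcript (y axes, from 0; dotted line at 1) in each library for Stag1 to Stag2, Pds5a to Pds5b and Wapl to Nipbl. Stag1 to Stag2 drops from 1.38 to 1.72 in mESCs to 0.44 to 0.524 in EBs, and Pds5a to Pds5b is lowest in WT EBs (1.24) and highest in CTCF-K20R EBs (1.87 and 1.91).

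Nipbl (ENSMUSG00000022141, GRCm38 chromosome 15 from 8290617 to 8444463, - strand), the loader, was at 3575 and 3531 normalized counts in WT mESCs, 3222 and 3093 in CTCF-K20R mESCs, 3250 and 3216 in WT EBs, and 3496 and 3725 in CTCF-K20R EBs. The CTCF-K20R libraries were below WT in mESCs and above WT in EBs. Nipbl was not called on day 4 (log2 fold change 0.16, interval 0.01 to 0.30, adjusted p = 0.08) or on day 0 (-0.17, interval -0.32 to -0.03, adjusted p = 0.111). The difference between these effects was called at 0.33 (SE 0.0819, adjusted p = 0.0368), and was lost when any one of the 4 CTCF-K20R libraries was left out (0.0735 to 0.108) and with no filter on low genes (0.0701). With the GC content and length smooth removed Nipbl was called on day 4 (0.20, 0.0285), as was Smc3 (0.15, 0.0195). The ratio of Wapl to Nipbl, release factor to loader, was 4.76 and 4.75 per kilobase in WT mESCs, 3.30 and 3.23 in CTCF-K20R mESCs, 1.42 and 1.41 in WT EBs, and 1.97 and 1.8 in CTCF-K20R EBs. The ratio was lower in EBs in both genotypes, and the CTCF-K20R groups lay between the WT groups.

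The genotype effect differed between the days for 7 of the 10 genes, 4 with a higher and 3 with a lower value on day 4, against 14.7% and 12% of all genes and 26.6% in either direction. Those with a higher day 4 effect were Wapl, Stag2, Nipbl and Pds5a, and those with a lower one were Pds5b, Rad21 and Smc1a. Wapl alone passed a difference of 1 on the log2 scale, as did 6.84% of all genes upward and 6.04% downward. The members' median absolute difference was 0.343 and that of all genes 0.442. Wapl, Rad21 and Pds5b kept their call without each library in turn, whereas the calls for Smc1a, Nipbl, Pds5a and Stag2 were each lost without at least one CTCF-K20R library of those named above.

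Between the days in CTCF-K20R cells, 3 members rose (Stag2, Pds5a and Nipbl) and 6 fell (Rad21, Wapl, Stag1, Smc3, Smc1a and Pds5b), while 29.9% of all genes rose, 28.6% fell and 58.5% did either. Ctcf did not pass (log2 change 0.11, adjusted p = 0.0655). In WT cells, by value alone, Wapl was the one member below a log2 change of -1, as were 16.3% of all genes, and Stag2 the one above 1, as were 18.9%. The changes of the 2 genotypes had opposite signs for Smc1a (0.15 in WT, -0.21 in CTCF-K20R), Nipbl (-0.14 and 0.19) and Pds5b (0.46 and -0.17), and the CTCF-K20R changes of Smc1a and Nipbl lost their call without at least one CTCF-K20R library (adjusted p up to 0.0693 and 0.0944). Smc1a also lost it under quantile normalization (-0.09, 0.152) and Nipbl with the GC and length smooth (0.11, 0.0752), while Ctcf gained one under quantile normalization (0.22, 0.00436).

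Compared between genes per kilobase of the longest coding transcript, Rad21 was the most abundant of the 10 in every group, from 2460 in WT mESCs and 3030 in CTCF-K20R mESCs to 1910 in WT EBs and 1750 in CTCF-K20R EBs. Wapl held rank 2 in WT mESCs (1790), shared rank 4 with Smc1a in CTCF-K20R mESCs (1090 each), and held rank 7 in WT EBs (485) and rank 6 in CTCF-K20R EBs (722). Nipbl and Pds5b held ranks 9 and 10 in all 4 groups. Stag2 stood at rank 8 in mESCs of both genotypes (381 in WT and 354 in CTCF-K20R), at rank 5 in WT EBs (878) and at rank 4 in CTCF-K20R EBs (1060). Neighbours in the order that overlapped in their libraries were Stag2 and Nipbl in WT mESCs, Smc1a and Wapl as well as Nipbl and Pds5b in CTCF-K20R mESCs, and Ctcf and Smc3 in CTCF-K20R EBs (1280 each). The order depends on the length used: with the median length of a gene's coding transcripts Rad21 stayed at rank 1 in every group, but Stag1 moved to rank 2 in all 4 because it has many short annotated transcripts.

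By the root mean square difference of centred log2 profiles over the 4 group means, the genes nearest to Ctcf among 11059 compared were Gm6133 (0.006), Ercc2 (0.009) and Fbxo30 (0.011), none of them on chromosome 8. Among the other members the nearest to Ctcf was Pds5a (0.097). The closest pair of members was Smc3 and Stag1 (0.05), followed by Nipbl and Pds5a (0.059). Wapl and Stag2 had no near member, with 0.547 to Rad21 for Wapl and 0.632 to Pds5a for Stag2. With 4 points per profile, drawn from the same 8 libraries, these are descriptions of likeness and no test.

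The wider set of genes that load, acetylate or release cohesin had 12 members, of which 3 were higher and 1 lower in CTCF-K20R EBs and 8 were not called, against 21.5% of all genes higher and 18.6% lower. On day 0 the counts were likewise 3 and 1, against 7.83% and 7.57%. Esco2, the acetyltransferase that locks cohesin on replicated DNA, was lower on both days. The libraries held 3643 and 3690 normalized counts in WT mESCs, 1831 and 1882 in CTCF-K20R mESCs, 1556 and 1539 in WT EBs, and 1011 and 1032 in CTCF-K20R EBs, with log2 fold changes of -0.98 on day 0 (SE 0.0572, adjusted p = 0.00144) and -0.60 on day 4 (SE 0.0572, adjusted p = 0.000974), the former lost without either CTCF-K20R EB library (0.0589 and 0.0588). The 89 tested genes within 5 Mb of Esco2 on chromosome 14 had medians of -0.60 and -0.39 on those days, and their part in its value was not tested.

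Higher in CTCF-K20R EBs were Espl1, the separase that cuts RAD21 (log2 fold change 0.51, adjusted p = 0.000954), Cdca5, the sororin that guards acetylated cohesin (0.39, adjusted p = 0.00369), and Mau2, the partner of NIPBL (0.42, adjusted p = 0.00341), whose 134 neighbours on chromosome 8 had a median of 0.64. On day 0 the higher genes were Mau2 (0.36), Espl1 (0.27) and Pttg1, the securin that restrains separase (0.46, adjusted p = 0.0323), and each of these 3 calls was lost when any one of the 4 CTCF-K20R libraries was left out. Sgo2a, a centromere guardian of cohesin, fell by 1.22 between days in CTCF-K20R cells (adjusted p = 2.57e-05), with a log2 change of -1.24 in WT. Of 9 cycling cell markers, 5 were called higher and 1 lower in CTCF-K20R EBs, against 21.5% and 18.6% of all genes. On day 0, 4 were called higher and 1 lower, against 7.83% and 7.57% of all genes. Their sums were 81120 and 80050 in CTCF-K20R EBs against 64980 and 65070 in WT EBs, with no marker at 0 in any library. On day 0 the sums were 95150 and 94520 in CTCF-K20R mESCs against 86870 and 87250 in WT mESCs. Of the markers called higher on both days, Mcm5 lies on chromosome 8 among neighbours with medians of 0.64 on day 4 and 0.57 on day 0, and Bub1 and Pcna on chromosome 2 among neighbours with medians of 0.40 and 0.19 on day 4 and 0.50 and 0.34 on day 0, while the neighbours of Mcm2 had medians of -0.09 and -0.05. The part of the cycling markers in the values of these genes was not tested.

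Of 4 cohesin subunits used in germ cells, 2 were called higher in CTCF-K20R on both days. Among all genes 21.5% were called higher on day 4 and 7.83% on day 0. Both subunits passed a log2 change of 1 on day 4, which 6.89% of all genes did upward. Smc1b, the meiotic counterpart of Smc1a, was at 177.4 and 178.5 normalized counts in WT mESCs, 328.4 and 361.2 in CTCF-K20R mESCs, 15.1 and 14.5 in WT EBs, and 105.3 and 93.7 in CTCF-K20R EBs. Its log2 fold change was 2.67 on day 4 (SE 0.21, adjusted p = 0.000526) and 0.95 on day 0 (adjusted p = 0.0381), with a difference of 1.72 (adjusted p = 0.0122). Stag3, the meiotic STAG subunit, was at 1451 and 1490 normalized counts in WT mESCs, 2763 and 2302 in CTCF-K20R mESCs, 537.1 and 553.2 in WT EBs, and 1342 and 1308 in CTCF-K20R EBs. The log2 fold change of Stag3 was 1.28 on day 4 (SE 0.113, adjusted p = 0.000769) and 0.78 on day 0 (adjusted p = 0.0126). No CTCF-K20R library of these genes overlapped a WT library of the same day, which was also so upward for 43.3% of all genes on day 4 and 37.6% on day 0. Both day 4 calls held without each library, while the day 0 calls were lost without either CTCF-K20R EB library, that of Smc1b also without either CTCF-K20R mESC library. Between the days Smc1b fell by 1.78 on the log2 scale in CTCF-K20R cells (adjusted p = 0.000458), and the difference in its effect was lost without CTCF-K20R mESC replicate 1 or either CTCF-K20R EB library. The other 2 were not called by genotype. Rec8, the meiotic kleisin, was at 472.3 and 471.3 normalized counts in WT mESCs, 126.6 and 140.5 in CTCF-K20R mESCs, 92.9 and 102.4 in WT EBs, and 80.9 and 265.5 in CTCF-K20R EBs. The mESC groups did not overlap (log2 fold change -1.81, SE 0.653, adjusted p = 0.127), which was also so downward for 40.3% of all genes on day 0. The neighbours of Rec8 on chromosome 14 had medians of -0.97 on day 0 and -0.91 on day 4. Rad21l was at 43.5 and 44.0 normalized counts in WT EBs against 26.2 and 30.8 in EBs of CTCF-K20R (log2 fold change -0.61, adjusted p = 0.473). Between the days the log2 change of Rad21l was 3.30 in CTCF-K20R cells and 4.45 in WT cells. In mESCs Rad21l was at 1.1 and 1 normalized counts in WT and at 3.2 and 1.1 in CTCF-K20R. These values are near or under the limit of 3 reads, so the size of both changes depends on the 1 added before taking logs. Rad21l also reached the mean of 10 needed for testing only through the EB libraries. The direction of both changes was thus set by that filter, and no p-value is given for them.

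Among the other SMC complexes, 4 of 8 condensin genes were higher and 0 lower in CTCF-K20R EBs: Ncaph (log2 fold change 0.53), Ncapd3 (0.34), Ncaph2 (0.30) and Ncapd2 (0.13, adjusted p = 0.0492), against 21.5% of all genes. The call for Ncapd2 was lost when any one of the 4 CTCF-K20R libraries (0.0702 to 0.136) or WT EB replicate 1 (0.0612) was left out, with a pseudocount of 0.1 (0.0535), with no filter on low genes (0.0736), with the replicate block (0.0691) and in a fit of the day 4 libraries alone (0.0942), and its sign turned under quantile normalization (-0.04). On day 0, 1 was higher (Ncaph, 0.57) and 1 lower (Ncapd2, -0.17), against 7.83% and 7.57% of all genes. Both calls were lost without either CTCF-K20R EB library. Ncaph lies on chromosome 2 among 115 tested neighbours with medians of 0.43 on day 4 and 0.50 on day 0. Of 6 SMC5/6 genes, which serve DNA repair and replication, 2 were lower and 0 higher on day 4, against 18.6% of all genes lower. On day 0 Smc5 alone was called, higher (0.34, adjusted p = 0.0103), against 7.83% of all genes higher. This call was lost when any one CTCF-K20R library was left out. Smc6 was at 2541 and 2559 normalized counts in WT mESCs, 2952 and 2855 in CTCF-K20R mESCs, 4880 and 4894 in WT EBs, and 2676 and 2649 in CTCF-K20R EBs. WT EBs were above all other libraries. The log2 fold change was -0.88 on day 4 (SE 0.0472, adjusted p = 0.000161), and the effects of the days differed by -1.06 (SE 0.0668, adjusted p = 0.000568). Nsmce2, its SUMO ligase partner, was lower by -0.50 on the log2 scale on day 4 (adjusted p = 0.00945), a call lost without CTCF-K20R EB replicate 2.

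Of 7 lysine acetyltransferase and deacetylase genes, 3 were higher and 2 lower in CTCF-K20R EBs, against 21.5% and 18.6% of all genes. On day 0 the only call was Crebbp, lower, against 7.57% of all genes lower. Crebbp, which encodes the acetyltransferase CBP, was lower on both days. Its levels were 1286 and 1267 normalized counts in WT mESCs, 774.7 and 695.9 in CTCF-K20R mESCs, 1302 and 1284 in WT EBs, and 750.3 and 764.3 in CTCF-K20R EBs, and it did not change with day in either genotype by more than 0.04 on the log2 scale. The log2 fold change was -0.77 on day 4 (SE 0.0912, adjusted p = 0.00206), a call that held without each library, and -0.80 on day 0 (SE 0.0912, adjusted p = 0.0061), a call lost without either CTCF-K20R EB library. The 47 tested neighbours of Crebbp within 5 Mb had medians of -0.04 and -0.06. Its paralog Ep300 was higher on day 4 (0.49, adjusted p = 0.0156, lost without either CTCF-K20R EB library) and not called on day 0 (-0.02).

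Kat2b, the acetyltransferase PCAF, was at 2103 and 2053 normalized counts in WT mESCs, 2016 and 2104 in CTCF-K20R mESCs, 148.6 and 142.2 in WT EBs, and 278.0 and 314.9 in CTCF-K20R EBs. Between the days Kat2b fell by 2.79 on the log2 scale in CTCF-K20R cells (adjusted p = 9.93e-06). Its log2 fold change on day 4 was 1.02 (SE 0.106, adjusted p = 0.00131), and 0.93 without CTCF-K20R EB replicate 2, and it differed from that on day 0 by 1.03 (adjusted p = 0.00714). Kat2a was also higher on day 4 (0.44, adjusted p = 0.00235). Hdac6, the deacetylase, was lower by -0.22 on the log2 scale (adjusted p = 0.0312), a call lost when any one of the 4 CTCF-K20R libraries was left out.

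Of 9 genes for the CTCF paralog and for architectural partners of CTCF, 5 were higher and 3 lower in CTCF-K20R EBs. The higher ones were Ctcfl, Parp1, Maz, Yy1 and Zfp143 and the lower ones Chd8, Top2b and Ldb1. Of all genes 21.5% were higher and 18.6% lower. On day 0, 2 of the 9 were lower and 0 higher, against 7.57% and 7.83% of all genes. The call for Zfp143 (0.22, adjusted p = 0.0474) was lost when any one of the 4 CTCF-K20R libraries was left out (0.0851 to 0.109), with the replicate block (0.0771) and in a fit of the day 4 libraries alone (0.0977), and that for Yy1 (0.30, adjusted p = 0.0146) without either CTCF-K20R EB library (0.091 and 0.103). Parp1, which modifies CTCF with poly(ADP-ribose), was at 7004 and 6946 normalized counts in WT EBs and, in CTCF-K20R EBs, at 11266 and 11550 (log2 fold change 0.71, SE 0.0315, adjusted p = 9.86e-05), and was not called on day 0 (0.05). Chd8, a chromatin remodeller that binds CTCF, was lower on both days, with log2 fold changes of -0.69 on day 4 and -1.03 on day 0 (adjusted p = 0.00685 and 0.00592), both lost without either CTCF-K20R EB library. Its 111 tested neighbours on chromosome 14 had medians of -0.83 and -0.95. Top2b, the topoisomerase found at loop anchors, was lower by -0.68 on day 4 (adjusted p = 0.00132). Ctcfl, the germline paralog of Ctcf, had 6.8 and 5.8 normalized counts in WT EBs against 34.0 and 18.6 in EBs of CTCF-K20R, close to the limit of 3 reads in WT, and its log2 fold change of 1.85 (adjusted p = 0.0383) lost its call when any one of the 4 CTCF-K20R libraries was left out. Ldb1, which bridges enhancers and promoters, was lower on both days (-0.52 on day 4 and -0.26 on day 0, the latter lost when any one CTCF-K20R library was left out) and fell by 1.05 between days in CTCF-K20R cells (adjusted p = 1.62e-05).

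**Figure D5:**
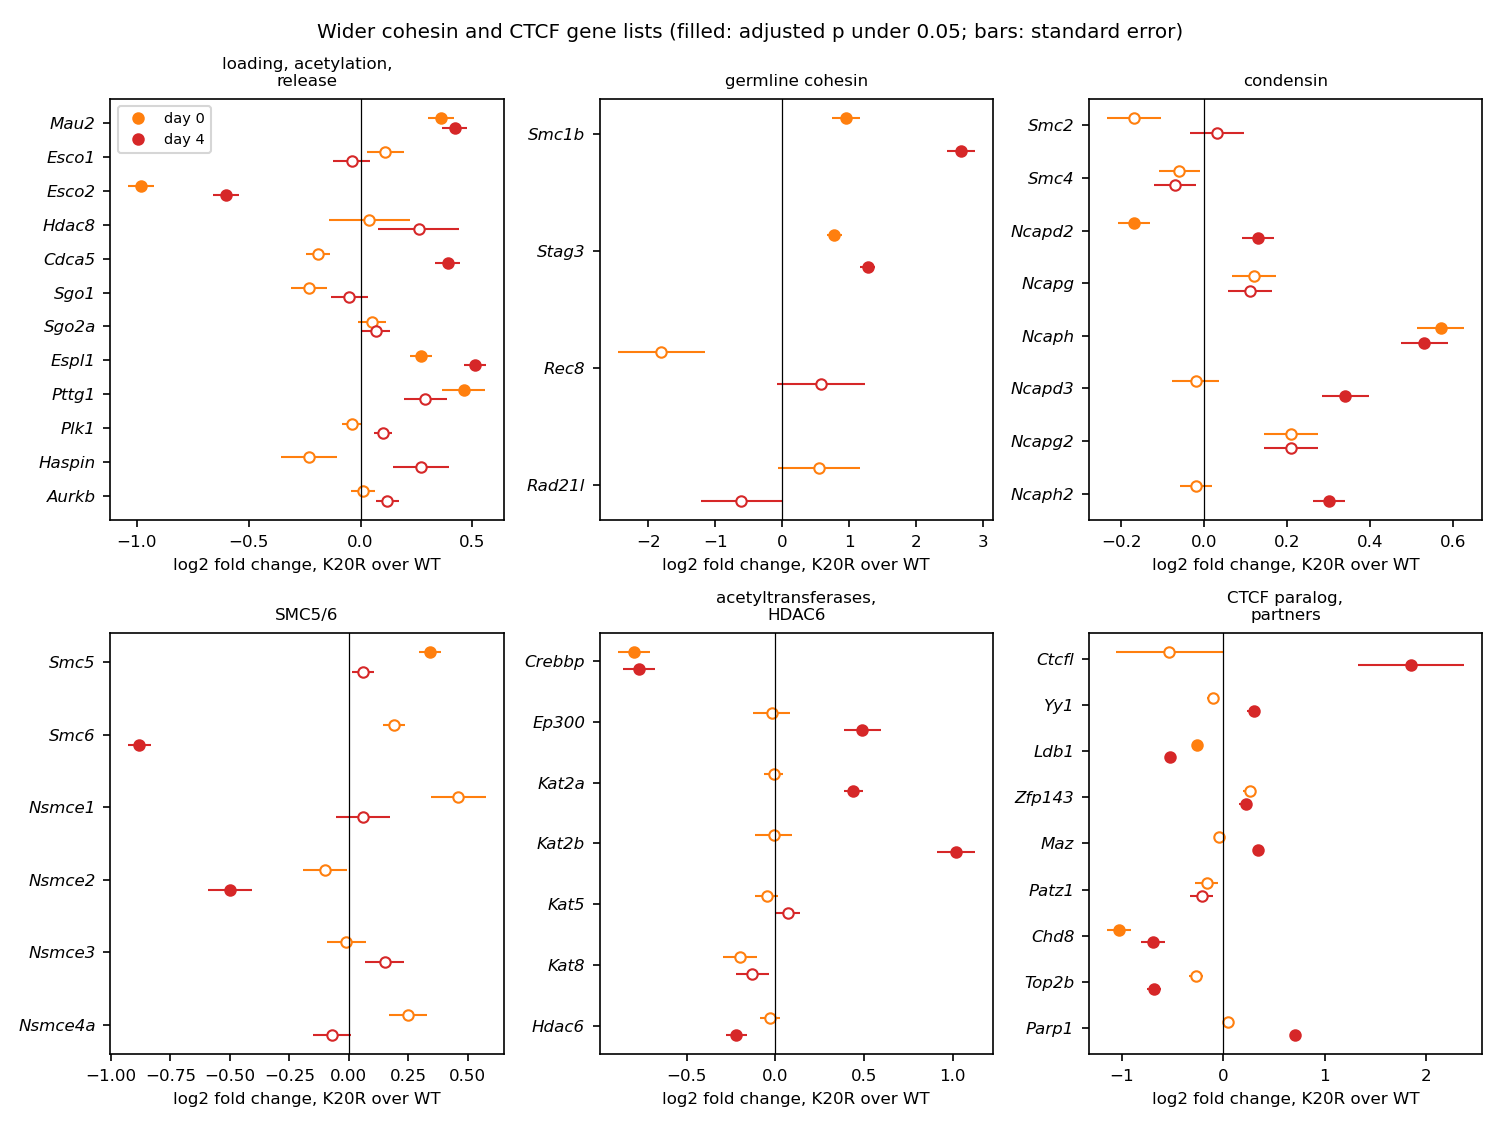
Log2 fold change of CTCF-K20R over WT (x axes) on day 0 (orange) and day 4 (red) for the genes of 6 wider lists, with the standard error as a bar; filled points have an adjusted p under 0.05. Smc1b (2.67) and Stag3 (1.28) stand furthest to the right on day 4 among the germline cohesin genes, and Crebbp lies at -0.80 and -0.77 on the 2 days.

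The mESCs were grown on feeder fibroblasts. Of 10 fibroblast markers 8 were listed, and their summed level was 517.7 and 506.2 normalized counts in WT mESCs, 161.2 and 153.7 in CTCF-K20R mESCs, 562.7 and 540.9 in WT EBs, and 795.7 and 735.0 in CTCF-K20R EBs. In mESCs most of this was Thy1 (458.5 to 465.4 in WT and 103.3 and 104.2 in CTCF-K20R). The collagen Col3a1 was at 0 in 3 of the 4 mESC libraries, with Postn and Dcn at 0 in all 4. Other collagens were detected. Col1a1 was at 17.4 and 16 in WT mESCs and at 34.3 and 32.2 in CTCF-K20R mESCs. Col1a2 was at 28.1 and 26 in WT mESCs and at 21.6 and 12.2 in CTCF-K20R mESCs. Neither was called by genotype on day 0. Of the 6 fibroblast markers tested, Thy1 alone was called then, lower in CTCF-K20R (log2 fold change -2.14), against 7.57% of all genes lower. Col6a1 was at 6.8 and 5.7 in WT mESCs and at 1.1 and 3.3 in CTCF-K20R mESCs. The part of feeder RNA in the values of the members was not tested.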

How the data were processed

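RNA was isolated with Trizol and sequenced by the study. Per the labels and the study's methods, reads were trimmed with Trim Galore, quantified with Salmon on mm10, summed to genes with tximport and normalized with DESeq2; the authors deposited 1 table of normalized counts (a signal value per gene and library), which are not whole reads. Strandedness was not stated. Here values were set to log2(value + 1); genes whose mean value reached 10 (15767) were fitted with limma 3.58.1 (R 4.3.3), 1 mean per group, a mean-variance trend and Benjamini-Hochberg adjustment, with residual degrees of freedom of 2. WT pairs were averaged (6 samples in the fit). The script was tested on simulated data. Whether replicate numbers pair the samples was not stated. For CTCF-K20R, the correlation between day 0 and day 4 of deviations by replicate number was -0.01. The other correlations, up to 0.03, involve a WT pair that differed by less than sampling noise, so they cannot show pairing. Positions come from GENCODE vM21 (GRCm38, the files' build), which held 15664 of the 15767 tested genes.

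The members and lists were chosen with earlier results of these data known. Named were all 10 members, genes of the wider lists with counts for each whole list, all of those with an adjusted p under 0.05 and a log2 change beyond 1, and nearest profiles. Columns of other samples numbered 0.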

Additional observations from a re-analysis of the deposited data

Results flagged for a closer look

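For 7 of the 10 genes the effect of genotype differed between day 4 and day 0 by the test of the difference itself (limma, adjusted p under 0.05; day 4 effect minus day 0 effect, log2). The values were 1.29 for Wapl, -0.63 for Pds5b, -0.43 for Rad21, 0.37 for Stag2, -0.36 for Smc1a, 0.33 for Nipbl and 0.26 for Pds5a. Among all genes 26.6% passed the same test. Groups of 1 or 2 samples were too small to look for a library far from the others.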

How the results depend on the processing

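Across 19 alternative settings at most, the members' calls kept direction and side of the threshold in 410 of 468 comparisons with an alternative. In the other 58 they kept their direction without passing. The 410 include settings that could hardly change a call. Those left out 1 library of a near-identical WT pair or used another pseudocount for genes at these levels. The fits with all 8 libraries separate are also included, so the 410 do not measure how firm the calls are. Counts of members called higher on day 4 (4 in the report) were 1 under quantile normalization, 2 at an adjusted p under 0.01, 1 to 4 with a library left out, and 6 with all 8 libraries separate or with the GC content and length smooth. On day 0, the count called higher (1) was 3 under TMM-style scaling, 4 with the GC content and length smooth, 5 with all 8 libraries separate (5 also with a replicate block), 0 in a fit of the libraries compared and 0 to 1 with a library left out; the count called lower (1) was 4 with all 8 libraries separate, 4 with the block as well, and 0 to 1 with a library left out. The count with a higher day 4 than day 0 effect (4) was 1 at an adjusted p under 0.01 and 1 to 4 with a library left out. Of all genes, 6329 were called on day 4, 2429 on day 0 and 4200 for the difference; with all 8 libraries separate these were 10323, 7562 and 8915, and without a CTCF-K20R library 3356 to 5787, 0 to 791 and 1355 to 2763. Of all genes, 3395 were called higher on day 4 in the main fit, 3746 under quantile normalization and 3702 with the GC content and length smooth. On day 0, 1235 were called higher in the main fit, 1369 under TMM-style scaling and 1536 with the GC content and length smooth. The causes were not tested, except that treating the near-identical WT libraries as separate lowers the estimated spread by construction.

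Sign changes in members concerned effects that had not been called. Under quantile normalization Smc3 and Stag1 on day 4 were -0.04 and -0.06, Smc1a on day 0 was -0.01, and the differences between days of Ctcf and Smc3 were -0.09 and -0.10; TMM-style scaling gave -0.01 for the Ctcf difference and the GC and length smooth 0.00 for Pds5a on day 0. With a library left out the Ctcf difference ranged from -0.03 to 0.03 and the Smc3 difference from 0.00 to 0.03. Of the wider lists, whose alternatives were added after seeing the data, Ncapd2 on day 4 turned to -0.04 under quantile normalization.

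With the replicate number as a replicate block, Rad21 on day 4 was -0.12 with an adjusted p of 0.0532, and no other member call changed. Whether replicate numbers mark shared cultures was not stated, so this block has no stated basis. With 1 WT sample a day, the depth is sufficient for these genes, but the number of samples limits the precision.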
